A study of Mus musculus with 17 samples.

Results

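The Kruppel-like factors (KLFs) are a family of transcription factors, and this report follows 10 of them (Klf1, Klf2, Klf3, Klf4, Klf5, Klf6, Klf7, Klf9, Klf10 and Klf13) across 6 blood stem and progenitor cell populations of mouse bone marrow. The members were taken by gene name from the annotation printed in the array files, which gave 16 probes of 41174 and 10 gene names of 28090. RNA was hybridised to 17 single-colour Agilent arrays: 2 of long-term haematopoietic stem cells (LT-HSC) and 3 each of short-term haematopoietic stem cells (ST-HSC), multipotent progenitors (MPP), common myeloid progenitors (CMP), granulocyte-macrophage progenitors (GMP) and megakaryocyte-erythroid progenitors (MEP). All cells came from female C57Bl/6 mice of 6 to 8 weeks that carried no engineered allele and received no agent, and each array held cells pooled from several mice. After removal of cells bearing mature lineage antigens, the populations were sorted on c-kit, sca-1, FLT3, CD34 and the Fc gamma receptor. The 3 stem and multipotent populations (called the HSC subsets here) and the 3 myeloid progenitor populations came from different sorts, so that sort and population group cannot be told apart between them. Each p-value measures the spread between these pools. In bulk RNA of a sorted population, fewer cells that express a gene and less RNA per cell cannot be told apart.

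KLFs bind CACCC boxes and related GC-rich DNA through 3 zinc fingers at the carboxyl end of the protein, and the rest of the protein decides whether a target gene is activated or repressed. Klf1 drives the globin and red cell membrane genes and is needed for red cell formation. Klf2 keeps naive T cells quiescent and controls endothelial genes, and Klf4 is best known for monocyte differentiation and for its use in reprogramming cells to pluripotency. Klf5, Klf6 and Klf7 are mostly activators, Klf3 represses through the CtBP corepressors, and Klf9, Klf10 and Klf13 recruit the Sin3A corepressor.

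The arrays differed in brightness and in the time of scanning. Between 41.4% and 70.2% of spots lay well above background. One of the 2 LT-HSC arrays was dim: the 75th percentile of its intensity was 53.1 against 243 to 534 on the other 16 arrays. By month of scanning there were 3 runs. The first held the arrays numbered 1 and 2 of CMP, GMP and MEP, the second held the unnumbered arrays of ST-HSC and MPP and of the 3 myeloid populations, and the third held the remaining ST-HSC and MPP arrays and both LT-HSC arrays. Values below are log2 intensities after quantile normalisation unless another scale is named, and a difference was called at a Benjamini-Hochberg adjusted p under 0.05 from limma, adjusted over all 41174 probes.

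Marker genes followed the population labels in most respects. The summed level of the HSC marker list was 13.39 to 13.93 (log2) in the HSC subsets and 7.39 to 11.25 in the myeloid populations, and the HSC marker Slamf1 was not well above background on any MPP array. The GMP list was highest in GMP at 19.20 to 19.79, with ST-HSC at 18.30 to 19.01 and CMP at 17.95 to 19.06. The MEP list was highest in MEP at 16.10 to 16.50, with LT-HSC at 14.87 to 15.41 and CMP at 14.30 to 15.07. Genes of mature cells were measured too. The mature neutrophil list summed to 18.03 to 19.11 in LT-HSC and ST-HSC against 15.22 to 18.14 in the other 4 populations, with all 5 of its genes well above background on every array, and the mature erythroid list to 12.84 to 14.54 in the HSC subsets and 14.16 to 15.84 in MEP against 8.92 to 12.18 in CMP and GMP. The T cell list summed to 10.58 to 11.37 in the HSC subsets against 8.05 to 10.55 in the myeloid populations. For the endothelial list these ranges were 10.54 to 11.40 and 7.51 to 9.68. The B cell list was 12.23 to 12.89 in LT-HSC, 8.65 to 9.19 in MEP and 11.28 to 11.96 elsewhere. The macrophage list was 8.29 to 8.88 in MEP and 9.62 to 11.83 elsewhere. Of the 5 endothelial genes, Plvap stood well above background on 17 arrays, Emcn on 15, Kdr and Tek on 10 each and Cdh5 on 1. The part of such cells in the KLF levels was not tested.

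Population had an effect on 10 of the 16 KLF probes, belonging to 7 of the 10 genes (Klf1, Klf2, Klf3, Klf4, Klf6, Klf7 and Klf10), by the limma F-test over the 6 populations. Of all probes, 40.6% passed the same test. At the stricter unadjusted p of 1e-06, 5 KLF probes passed (Klf1, 1 of the 2 Klf2 probes, Klf4 and both Klf6 probes), against 4.9% of all probes. Klf4 had the largest F of the family, 360, which placed it within the top 0.00729% of all probes by p. Klf5, Klf9 and Klf13 had no probe called by this test, although all 3 genes gave signal well above background on every array with at least 1 probe.

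HSC subsets and myeloid progenitors were compared as the mean of 3 population means against the mean of the other 3. Of the 16 probes, 6 were higher in the HSC subsets (Klf2, Klf4, both of Klf6, Klf7 and Klf10) where 18.2% of all probes were, and 3 were lower (Klf1, Klf3 and Klf9) where 23.1% were. With the scanning run as a block 5 were higher and 0 lower. On 5 probes (Klf2, Klf4, both of Klf6 and Klf10) each of the 8 HSC-subset arrays lay above each of the 9 myeloid arrays, a separation seen for 2.54% of all probes. The reverse separation occurred for 0 KLF probes and for 5.51% of all probes. The differences ran from -1.95 to 3.39, with 9 of the 16 above zero and a median of 0.06, beside -0.02 over all probes.

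Between the 2 lineage-restricted populations, 6 KLF probes were higher in GMP than in MEP (Klf2, Klf4, both of Klf6 and both of Klf7) against 9.56% of all probes, and 4 were lower (Klf1, both of Klf3 and Klf10) against 7.81%. The GMP arrays lay above the 3 MEP arrays on the same 6 probes, with only 2 GMP values on 1 of the Klf7 probes, where 14.2% of all probes did so. They lay below on 5, the 4 called probes and 1 of Klf5, where 19.7% of all probes did so. The median difference of the 16 probes was -0.19 and that of all probes -0.07.

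**Figure D1:**
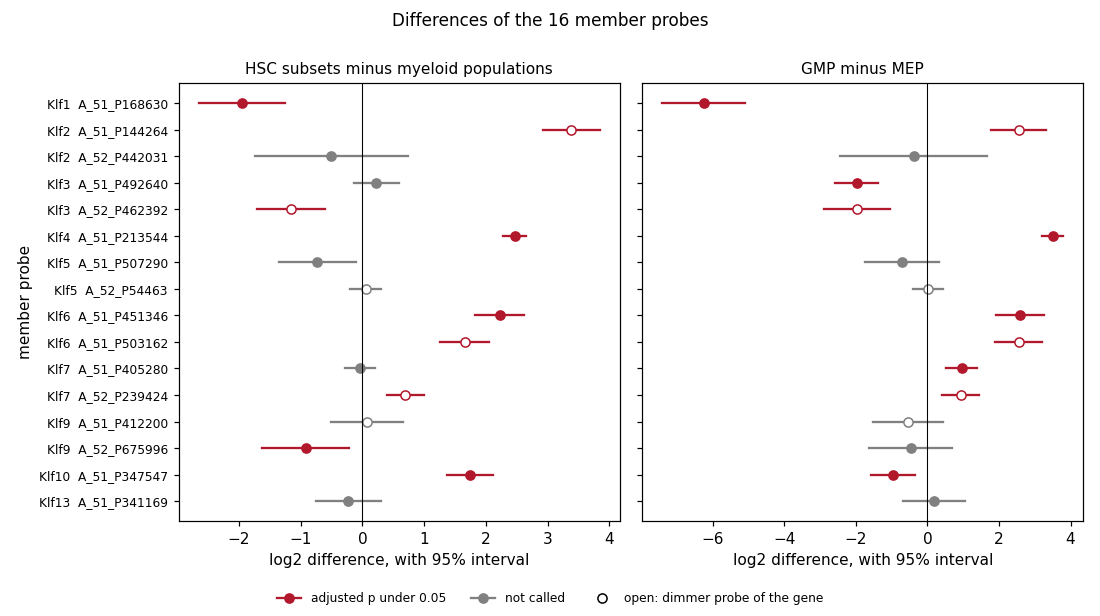
Log2 difference of each of the 16 KLF probes, HSC subsets minus myeloid progenitors and GMP minus MEP, with 95% confidence intervals from limma. Klf4, Klf6 and 1 probe of Klf2 lie to the right of zero in both comparisons, and Klf1 lies far to the left in GMP minus MEP at -6.25.

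Klf4 was measured by 1 probe (mm9 chromosome 4, 55540833 to 55540892, minus strand) and gave the tightest pattern of the family. Its levels were 14.05 and 13.72 in LT-HSC, 13.44, 13.48 and 13.45 in ST-HSC, and 14.55, 14.21 and 14.36 in MPP. They were 12.79, 12.74 and 12.67 in CMP, 12.41, 12.48 and 12.73 in GMP, and 8.99, 8.98 and 9.15 in MEP. The HSC subsets lay above CMP and GMP without overlap, and MEP lay far below all the others. From MPP to MEP the level dropped 40.3-fold (log2 difference 5.33 ± 0.14 SE, adjusted p = 2.63e-10), while from ST-HSC to CMP it dropped only 1.65-fold (0.73 ± 0.14, adjusted p = 0.0105). Most of the difference between HSC subsets and myeloid progenitors thus lay in MEP. Down the order of means, the steps from MPP to LT-HSC and to ST-HSC were not called (adjusted p = 0.0802 and 0.170), ST-HSC differed from CMP, the step from CMP to GMP was not called (0.19, 95% interval -0.11 to 0.49, adjusted p = 0.794), and GMP differed from MEP (3.50 ± 0.14, adjusted p = 1.66e-08). MPP and ST-HSC, which are 2 places apart, differed by 0.92 (adjusted p = 0.00305). The difference between HSC subsets and myeloid progenitors was 2.47 over all arrays, 2.38 with the scanning run as a block and 2.39 among the 5 arrays of the second run.

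Klf6, an activator that injury and growth signals induce in many cells, was also lowest in MEP on both of its probes. On the brighter one (mm9 chromosome 13, 5869371 to 5869430) it read 13.78 and 13.78 in LT-HSC, 14.30, 14.85 and 13.85 in ST-HSC, and 14.29, 15.01 and 13.81 in MPP. In the myeloid populations it read 13.09, 12.93 and 13.01 in CMP, 13.09, 12.17 and 12.82 in GMP, and 10.12, 10.14 and 10.07 in MEP. Again MEP stood apart from all the rest, and only the step from GMP to MEP (2.58 ± 0.31, adjusted p = 4.09e-05) was called among the 5 steps between neighbouring populations. The HSC subsets were 4.67-fold above the myeloid progenitors (log2 difference 2.22 ± 0.19, adjusted p = 1.58e-06). The second probe (5866706 to 5866765) gave 1.66 ± 0.18 (adjusted p = 1.43e-05). With the run as a block these values were 1.59 and 1.34, and within the second run 1.87 and 1.57.

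Klf2 gave different pictures on its 2 probes, both annotated to the same transcript on mm9 chromosome 8. The probe nearer the 3' end (74845137 to 74845196) read 13.68 and 12.93 in LT-HSC, 13.27, 13.91 and 13.29 in ST-HSC, and 14.50, 15.13 and 14.60 in MPP. It read 11.78, 11.50 and 12.29 in CMP, 10.91, 10.49 and 11.72 in GMP, and 8.24, 8.21 and 9.02 in MEP. MPP was thus highest and MEP lowest, with no overlap between any HSC-subset array and any myeloid array. MPP exceeded MEP 76.3-fold (6.25 ± 0.36, adjusted p = 4.99e-08) and LT-HSC 2.71-fold (1.44 ± 0.40, adjusted p = 0.0470). HSC subsets exceeded myeloid progenitors by 3.39 ± 0.21 (adjusted p = 1.39e-07), by 2.63 with the run as a block and by 2.93 within the second run.

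The other Klf2 probe (74843761 to 74843820) was the brighter one and did not follow the populations. It read 16.93 to 17.21 on the 5 arrays of the second scanning run and 14.34 to 15.49 on the other 12. The 2 ranges did not overlap, and every population with an array in the second run had its highest value there. This shift of 2.21 between the second run and the other arrays of the same populations was exceeded by 0.163% of all probes, for which the median size was 0.25. The HSC subsets differed from the myeloid progenitors by -0.51 on this probe (95% interval -1.75 to 0.73, adjusted p = 0.513). With the run as a block the difference was 0.24 (adjusted p = 0.668), and within the second run it was 0.10. A summary of Klf2 that keeps the brightest probe therefore shows no population pattern, and one that keeps the other probe shows one of the widest in the family.

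**Figure D2:**
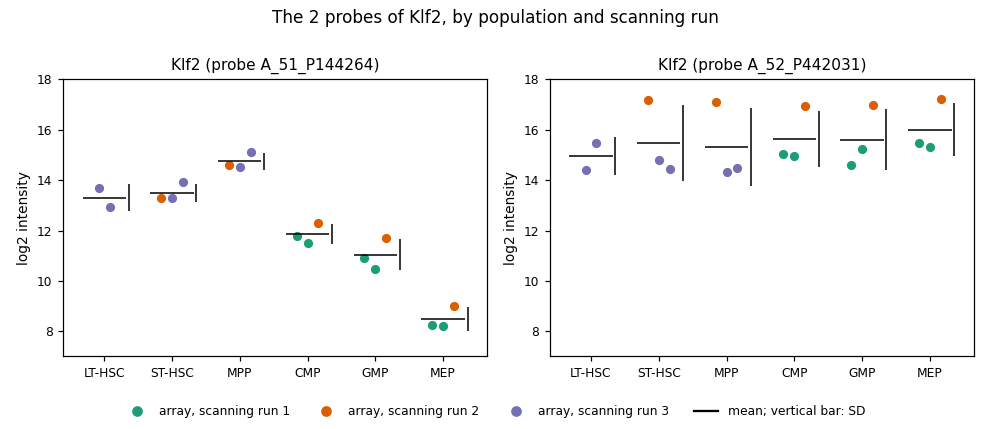
Log2 level of the 2 Klf2 probes on each of the 17 arrays by population, with the scanning run marked. The probe at 74845137 falls from MPP to MEP, whereas the probe at 74843761 stands at 16.93 to 17.21 on the arrays of the second run in all 5 populations scanned then.

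Klf10, which transforming growth factor beta induces and which represses through Sin3A, was the Sin3A-binding member with a population pattern. It read 12.43 and 12.07 in LT-HSC, 12.90, 11.83 and 12.32 in ST-HSC, and 12.94, 12.19 and 12.53 in MPP. It read 11.67, 11.64 and 11.03 in CMP, 10.07, 9.57 and 9.63 in GMP, and 10.70, 10.94 and 10.52 in MEP. Unlike Klf2, Klf4 and Klf6, it was lowest in GMP and not in MEP. HSC subsets exceeded myeloid progenitors 3.35-fold (1.74 ± 0.17, adjusted p = 6.14e-06), with 1.96 under the run block and 2.03 within the second run. CMP exceeded GMP by 1.69 ± 0.29 (adjusted p = 0.00368), a comparison in which 4.77% of all probes were called. GMP lay below MEP by 0.96 on average (-0.96 ± 0.29, adjusted p = 0.0334). That last call was lost with normexp background correction (adjusted p = 0.0558) and without any one of the unnumbered GMP array, GMP 2, MEP 1 or MEP 2 (adjusted p = 0.0793 to 0.118), and with the replicate number as a block on the 6 numbered myeloid arrays (adjusted p = 0.0756).

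**Figure D3:**
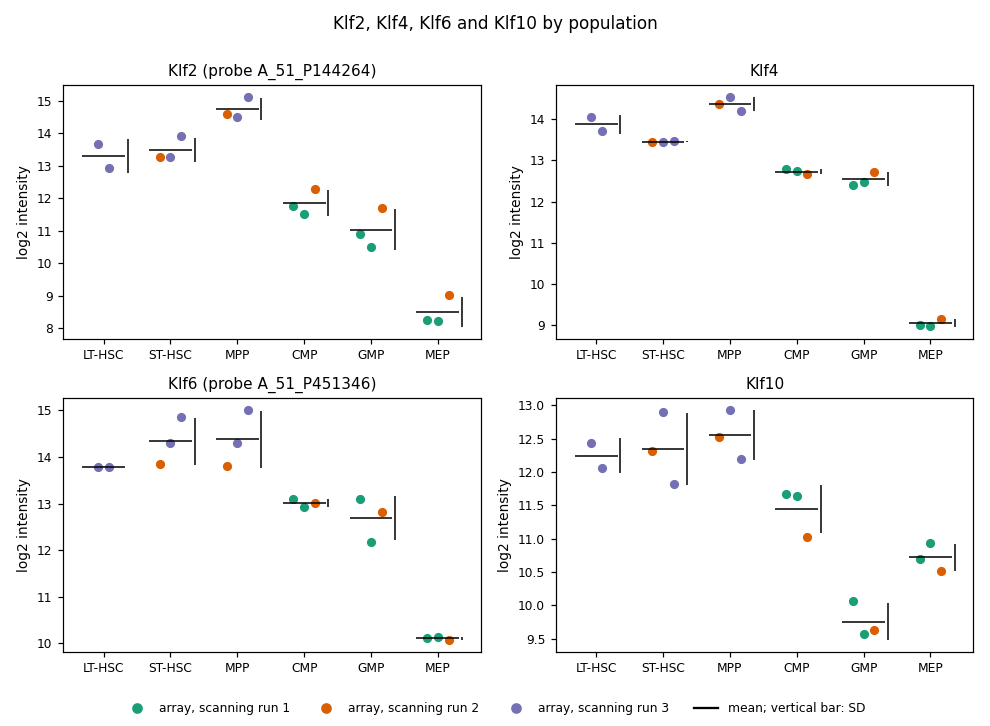
Log2 levels of Klf2 (probe at 74845137), Klf4, Klf6 and Klf10 on each of the 17 arrays, with a bar at each population mean. Every HSC-subset array lies above every myeloid array for these probes, and MEP is lowest except for Klf10, where GMP is lowest at 9.57 to 10.07.

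The windows of 250 bases before the start of Klf2 (chr8:72318812-72319061, plus strand) and Klf4 (chr4:55532476-55532725, minus strand) are shown, from RefSeq on GRCm38.p6, because these 2 genes had the widest ranges of population means after Klf1. Matches to CACCC, the core KLF box, and to GATAA, the core GATA factor motif, on either strand are in capitals.
Klf2: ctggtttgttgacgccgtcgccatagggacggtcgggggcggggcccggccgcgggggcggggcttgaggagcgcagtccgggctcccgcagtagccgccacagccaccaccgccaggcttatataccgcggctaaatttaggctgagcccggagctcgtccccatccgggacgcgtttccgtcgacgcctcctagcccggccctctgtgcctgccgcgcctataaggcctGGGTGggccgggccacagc
Klf4: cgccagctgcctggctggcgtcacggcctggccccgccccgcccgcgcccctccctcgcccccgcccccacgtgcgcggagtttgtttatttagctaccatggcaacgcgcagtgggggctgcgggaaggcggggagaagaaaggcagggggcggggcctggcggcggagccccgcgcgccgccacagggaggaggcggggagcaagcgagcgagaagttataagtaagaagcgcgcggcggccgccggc
The Klf2 window held 1 CACCC match, on the minus strand at base 232, and the Klf4 window held 0 matches to either motif. Of the 32851 windows of this kind, 52.0% held CACCC and 22.6% held GATAA.

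Immediate early genes are switched on within minutes of a stimulus, cell handling included, and several KLFs are induced with them, so a list of 13 was read on the same arrays. In the HSC subsets 12 of the 13 were higher and 0 lower, where 21.7% of all gene names were higher and 19.0% lower by their brightest probe. The list's median difference was 1.55, beside 0.04 for all gene names. Nr4a1, an orphan nuclear receptor, differed by 3.91, and Fos, Egr1 and Fosb, which encode transcription factors, by 2.36, 2.33 and 1.90. The levels of Nr4a1 were 16.56 to 17.33 in MPP, 15.30 to 16.87 in LT-HSC and ST-HSC, 14.05 to 15.85 in CMP, 11.47 to 11.72 in MEP and 10.51 to 11.28 in GMP. Its HSC-subset arrays thus lay mostly above CMP, with MEP and GMP below both. Of the list, Junb and Egr2 had every HSC-subset array above every myeloid array. With the run as a block 9 of the 13 were called higher, and within the second run all 13 differences were positive with a median of 1.68. Between GMP and MEP 3 were higher and 0 lower, against 10.3% and 8.26% of gene names, led by Ier3 at 2.04. With the run as a block these counts were 6 and 1, over the 9 alternatives tried 2 to 6 and 0 to 2, and on leaving out 1 array 1 to 3 (1 without GMP 1) and 0 to 1 (1 without either LT-HSC array or the unnumbered MEP array). The part of cell handling in Klf2, Klf4, Klf6 and Klf10 was not tested.

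Klf1, the erythroid member, had the widest range of population means in the family, 7.53 on the log2 scale. It read 12.86, 12.83 and 13.04 in MEP, 10.14, 9.80 and 9.46 in CMP, and 6.26, 6.55 and 7.17 in GMP. In the HSC subsets it read 10.83 and 9.65 in LT-HSC, 7.08, 8.16 and 8.45 in ST-HSC, and 4.23, 5.24 and 6.69 in MPP. The means thus ran down from LT-HSC through ST-HSC to MPP, stood near LT-HSC in CMP and were highest in MEP. MEP exceeded GMP 76.3-fold (GMP minus MEP -6.25 ± 0.54, adjusted p = 2.34e-06), and the 2 runs that held both populations gave -6.44 and -5.88. LT-HSC exceeded MPP 28.9-fold (4.85 ± 0.60, adjusted p = 0.000388), one of 2 KLF probes called in that comparison, where 7.26% of all probes were. LT-HSC was not separated from CMP by the test (0.44, 95% interval -0.87 to 1.74, adjusted p = 0.685) and its difference from ST-HSC missed the threshold (2.34 ± 0.60, adjusted p = 0.0535). MEP still exceeded LT-HSC (2.68 ± 0.60, adjusted p = 0.00425). CMP exceeded ST-HSC (1.90 ± 0.54, adjusted p = 0.0420), while the steps from ST-HSC to GMP and from GMP to MPP were not called. Over all arrays the HSC subsets were lower than the myeloid progenitors by 1.95 on average (-1.95 ± 0.32, adjusted p = 0.000322). With the run as a block that difference was -0.97 and no longer called (adjusted p = 0.246), and within the second run it was -2.32. Without both LT-HSC arrays it was -3.18, and still called.

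Other erythroid genes were read beside Klf1 in the same cells. The carbonic anhydrase gene Car1 had means of 14.80 in MEP, 13.37 in LT-HSC, 12.09 in CMP, 10.08 in ST-HSC, 7.50 in MPP and 7.23 in GMP. The erythropoietin receptor gene Epor went from 12.09 in LT-HSC through 10.14 in ST-HSC to 7.38 in MPP, with 11.04 in CMP, 7.65 in GMP and 14.03 in MEP. Both had Klf1's order for MEP, LT-HSC, CMP and ST-HSC, but the other members of the MEP list did not: Zfpm1 had ST-HSC (14.18) above CMP (13.98), and Itga2b was 7.42 in MEP and 7.49 in LT-HSC against 11.72 in CMP. Gata1, the erythroid transcription factor, stood at 8.47 in LT-HSC and 8.36 in ST-HSC, below its 10.13 in CMP and 12.08 in MEP. The part of erythroid cells in these LT-HSC levels was not tested.

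The list of 10 Klf1 target genes followed it between GMP and MEP. All 10 were lower in GMP, against 8.26% of gene names, with a median difference of -3.95, beside -0.07 for all gene names. Eraf, which encodes the alpha-globin stabilising protein, differed by -8.06 and the beta-globin gene Hbb-b1 by -5.05. The membrane skeleton gene Epb4.9 was called too, with 1 of 3 GMP arrays well above background, so its difference is not given. For Epb4.2 the 3 GMP arrays were all at background, which put GMP at least 6.64-fold below MEP. Between HSC subsets and myeloid progenitors the list split, with 1 higher (Hbb-b1, 1.94) and 3 lower, Icam4 (-1.51) and Epb4.9 (-1.15) among them, where 21.7% and 19.0% of gene names were called. The higher count was 0 with the run as a block, and the lower count was 6 without both LT-HSC arrays. The levels of Hbb-b1 in the HSC subsets were 12.60 to 14.22, above CMP at 10.30 to 11.70 and near MEP at 13.62 to 15.34. Klf1 itself was 4.23 to 6.69 in MPP, where Hbb-b1 was 12.60 to 13.71.

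Klf3, the CtBP-binding repressor that Klf1 is known to activate in erythroid cells, was higher in MEP than in GMP on both probes. The brighter one read 9.25, 9.66 and 10.05 in MEP against 7.47, 7.52 and 8.03 in GMP and 7.70, 7.75 and 8.25 in CMP. In the HSC subsets it read 9.19 and 8.78 in LT-HSC, 7.99, 7.95 and 8.46 in ST-HSC, and 8.76, 8.36 and 9.22 in MPP. MEP was highest with LT-HSC next, and no step between neighbours in the order of means was called. GMP minus MEP was -1.98 ± 0.28 (adjusted p = 0.000159) on this probe and -1.97 ± 0.42 (adjusted p = 0.00467) on the other. The probes parted between HSC subsets and myeloid progenitors, with 0.22 (adjusted p = 0.313) on the brighter and -1.15 ± 0.26 (adjusted p = 0.00262) on the dimmer. The dimmer probe's call was lost with the run as a block (-0.16, adjusted p = 0.867), and within the second run its difference was -0.29.

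**Figure D4:**
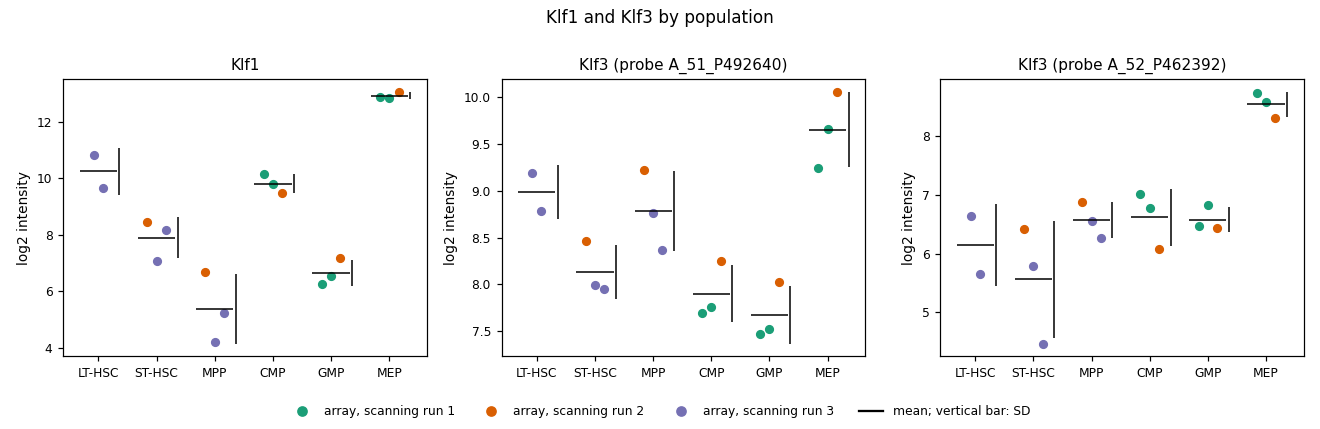
Log2 levels of Klf1 and Klf3 on each of the 17 arrays, with a bar at each population mean. MEP is highest for both genes, and Klf1 spans 4.23 in MPP to 13.04 in MEP with LT-HSC at 9.65 and 10.83.

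The windows of Klf1 (chr8:84901732-84901981, plus strand) and Klf3 (chr5:64803271-64803520, plus strand) are shown for the same 250 bases, because both genes were called higher in MEP than in GMP on each of their probes, with the same matches in capitals.
Klf1: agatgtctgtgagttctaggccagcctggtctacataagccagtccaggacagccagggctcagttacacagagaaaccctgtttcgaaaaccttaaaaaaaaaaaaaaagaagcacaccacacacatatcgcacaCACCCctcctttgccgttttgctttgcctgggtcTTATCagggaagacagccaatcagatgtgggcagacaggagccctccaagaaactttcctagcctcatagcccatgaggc
Klf3: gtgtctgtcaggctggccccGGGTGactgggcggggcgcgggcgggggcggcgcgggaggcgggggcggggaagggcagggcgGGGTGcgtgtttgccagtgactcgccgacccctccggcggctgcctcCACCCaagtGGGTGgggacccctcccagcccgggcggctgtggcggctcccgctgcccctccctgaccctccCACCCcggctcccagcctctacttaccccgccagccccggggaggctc
The Klf1 window held 1 CACCC match at base 137 and 1 GATAA match on the minus strand at base 171, and it was the one window with a GATAA match among the 8 members that had one in the table. The Klf3 window held 5 CACCC matches. Klf5 and Klf10 had no window, and those of Klf6, Klf7, Klf9 and Klf13 held 0, 3, 1 and 1 CACCC matches.

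Klf7, an activator known from neurons and adipocytes, moved little but in 1 direction between GMP and MEP. The brighter probe read 9.21 and 9.05 on 2 GMP arrays (the third carried an outlier flag and was dropped from this probe) and 8.32, 8.11 and 8.10 in MEP. The difference was 0.95 ± 0.20 (adjusted p = 0.00531), and 0.92 ± 0.23 (adjusted p = 0.0131) on the second probe with all 3 GMP arrays. The groups did not overlap on either probe, although the first call was lost without GMP 1, which left 1 GMP value assumed to vary like the other groups (adjusted p = 0.0533). Between HSC subsets and myeloid progenitors the brighter probe differed by -0.04 (95% interval -0.29 to 0.21, adjusted p = 0.811). The second probe, which is annotated to another transcript, differed by 0.69 ± 0.14 (adjusted p = 0.00141), and this call was lost with the run as a block (0.63, adjusted p = 0.0863).

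Klf5, Klf9 and Klf13 had no probe that passed the F-test over all arrays. Klf5, known from gut epithelium and smooth muscle, was low on its measured probe, at 5.35 to 7.27 outside MEP and 7.63 to 7.89 in MEP. MEP lay above every other array for Klf5 and was called higher than ST-HSC (adjusted p = 0.0214), MPP (0.0175) and CMP (0.0419), and with the run as a block the F-test was called (adjusted p = 0.00567). HSC subsets minus myeloid progenitors was -0.73 (95% interval -1.36 to -0.11, adjusted p = 0.0575) and GMP minus MEP -0.71 (-1.74 to 0.33, adjusted p = 0.429). The first of these was called with normexp, in the authors' series table, with dim probes left out and without both LT-HSC arrays (adjusted p = 0.0310 to 0.0401). It was also called on leaving out the unnumbered array of CMP, ST-HSC or MPP (adjusted p = 0.00778 to 0.0435). It turned to 0.62 with the run as a block (adjusted p = 0.225) and 0.30 within the second run. The second was called on the 6 numbered myeloid arrays, with the replicate number as a block (-0.88, adjusted p = 0.0395) and without it (adjusted p = 0.0310). The second Klf5 probe was not well above background on any array. Klf13, known from T cells, read 10.36 to 12.13 over all 17 arrays, with -0.23 between HSC subsets and myeloid progenitors (-0.75 to 0.30, adjusted p = 0.487) and 0.19 between GMP and MEP (-0.68 to 1.06, adjusted p = 0.887). The Klf13 difference between HSC subsets and myeloid progenitors turned to 0.80 with the run as a block (adjusted p = 0.163) and 0.65 within the second run. Klf9, known as a hormone-responsive gene, read 6.82 to 9.65 on its brighter probe and 7.10 to 9.19 on the other. The brighter Klf9 probe was called lower in the HSC subsets (-0.92 ± 0.32, adjusted p = 0.0367). Its sign turned with the run as a block (0.47) and within the second run (0.19), the other probe gave 0.071 (adjusted p = 0.855), and the call was lost on leaving out any of 12 of the 17 arrays. Its GMP minus MEP difference of -0.47 (adjusted p = 0.711) was called on the 6 numbered arrays, at -0.84 with the replicate number as a block (adjusted p = 0.0223) and without it (adjusted p = 0.0333).

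Over the 15 pairs of populations the 16 probes gave 86 calls of 240, beside 17.3% of all probes and pairs. Every pair with MEP held more KLF calls than any pair without it. The pairs of HSC subsets with MEP also had the largest shares of all probes called. GMP against MEP gave 10 of 16 (17.4% of all probes), CMP against MEP 9 (16.7%), LT-HSC against MEP 9 (30.0%), and ST-HSC and MPP against MEP 11 each (30.0% and 32.9%). Against GMP there were 6 calls from LT-HSC (28.0%), 5 from ST-HSC (19.7%), 7 from MPP (22.5%) and 2 from CMP (Klf1 and Klf10, 4.77%). Against CMP there were 3 from LT-HSC (23.4%), 4 from ST-HSC (10.3%) and 5 from MPP (12.1%). Within the HSC subsets, 0 KLF probes were called between LT-HSC and ST-HSC (3.34% of all probes), 2 between LT-HSC and MPP (Klf1 and Klf2, 7.26% of all probes) and 2 between ST-HSC and MPP (Klf1 and Klf4, 2.02% of all probes). These pairs share arrays, so their counts are not independent of each other.

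The other 15 genes of the KLF and SP families on the array gave 8 higher in the HSC subsets and 1 lower, against 21.7% and 19.0% of gene names, with a median of 0.54. With the run as a block 1 was higher and 0 lower, with the slide as a random block 5 were higher, and within the second run 8 of the 15 differences were positive with a median of 0.022. Klf12 and Klf17 were not well above background on any myeloid array, so they have only a bound. Over all arrays they were at least 4.9-fold and at least 1.64-fold higher in the HSC subsets. Of the 8 HSC-subset arrays, 7 were well above background for Klf12 and 6 for Klf17. Within the second run Klf12 stayed higher in the HSC subsets, whereas the Klf17 difference turned to -0.14. Sp7, an osteoblast factor, was called higher with 2 of 9 myeloid arrays well above background, so its difference is not given. Sp2 was the one lower, at -1.98 over all arrays and -0.38 within the second run. Between GMP and MEP 0 were higher and 2 lower, Sp4 (-1.66) and Klf16 (-1.17), against 10.3% and 8.26% of gene names. Of 9 KLF cofactors, 1 was higher in the HSC subsets, the histone acetyltransferase gene Crebbp (1.15), and 2 were lower, the CtBP genes Ctbp1 (-0.60) and Ctbp2 (-0.22), against 21.7% and 19.0% of gene names. The lower count was 0 with the run as a block and 1 with the slide as a random block, in the authors' series table or without both LT-HSC arrays, and on leaving out 1 array it was 3 without the unnumbered LT-HSC array and 1 without any of ST-HSC 2, MPP 2 and the 6 numbered myeloid arrays. Between GMP and MEP, Ctbp2 (1.49) and the acetyltransferase gene Pcaf (0.56) were higher, against 10.3% of gene names, and 0 were lower, with 1 higher without any of GMP 1, GMP 2, MEP 1 or MEP 2 and 1 lower without either LT-HSC array. The CtBP genes lay in opposite directions there, with Ctbp1 at -0.50 (adjusted p = 0.128).

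Of 5 Klf2 target genes, 3 were higher in the HSC subsets and 1 lower. All gene names gave 21.7% and 19.0%. The counts were 1 and 0 with the run as a block, and 1 was higher with the slide as a random block. Edg1, the sphingosine 1-phosphate receptor gene, differed by 3.04 and thrombomodulin (Thbd) by 0.92. The gene called lower was that for endothelial nitric oxide synthase (Nos3), which was well above background on 3 of 8 HSC-subset and 1 of 9 myeloid arrays, so its difference is not given. That call was also lost with 75th percentile scaling and with dim probes left out. Between GMP and MEP 3 were higher, Thbd (4.34) and the integrin gene Itgb7 (1.12) among them, and 0 lower, against 10.3% and 8.26% of gene names. Edg1 was 7.25 to 9.32 in the HSC subsets, 6.58 to 6.93 in CMP and 4.26 to 5.34 in GMP and MEP. Edg1 thus shared the order HSC subsets, CMP and then the other 2 with the Klf2 probe at 74845137.

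**Figure D5:**
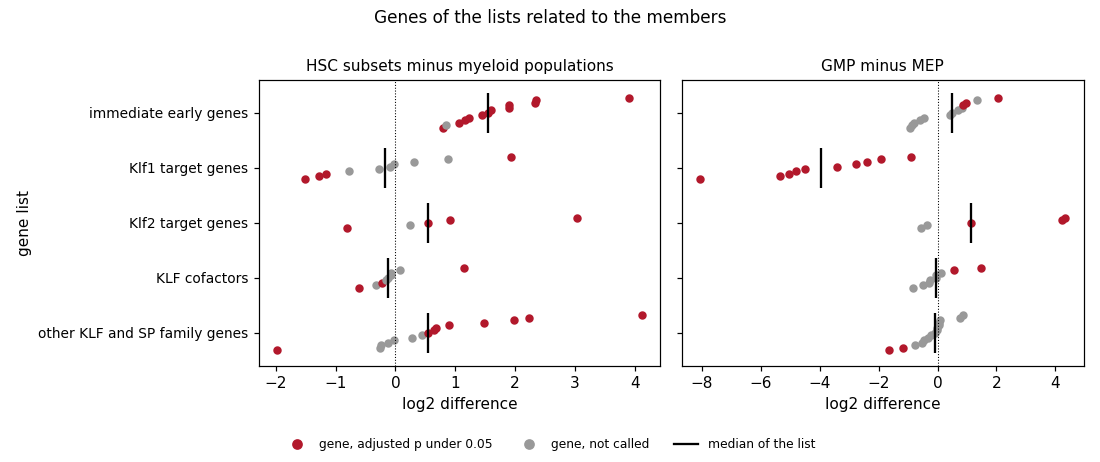
Log2 differences of the genes of 5 lists, HSC subsets minus myeloid progenitors and GMP minus MEP, one point per gene by its brightest probe with a bar at each list's median. The 13 immediate early genes have a median of 1.55 in the first comparison, and all 10 Klf1 targets lie below zero in the second with a median of -3.95.

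For the 6 members whose brightest probe passed the F-test, the genes most like them over the 17 arrays were named by Pearson correlation among 15372 genes well above background on at least 9 arrays. These are descriptions over arrays that share populations and runs. Nearest to Klf1 were 2210023G05Rik (r = 0.99), the Kell blood group gene Kel (0.99) and the collagen gene Col5a1 (0.98). Nearest to Klf4 were Pdlim2, Atp8b2 and Antxr2 (0.98 to 0.99), and to Klf6 Parc, Eltd1 and Crlf2 (0.98 each). Nearest to Klf10 were Dusp10, a phosphatase gene, Smad7, an inhibitor of transforming growth factor beta signalling, and Bbc3, a pro-apoptotic gene (0.97 each). Nearest to Klf3 were Hs6st1, Cetn4 and Bdh1 (0.94 to 0.95), and to Klf7 BC004044, 4930562F07Rik and Dok3 (0.90 to 0.93). Among the members themselves, by the brightest probe, Klf4 and Klf6 were most alike (r = 0.95), and Klf5 and Klf6 most opposed (-0.78).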

How the data were processed

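Total RNA was labelled with Cy3 and hybridised to single-colour Agilent 4x44k arrays. The authors deposited 1 scanner file per array, from Feature Extraction, holding intensity per spot after background subtraction (gProcessedSignal), and a series table of log2 values, whose rows matched the scanner spots by order and which served as an alternative. Per the labels, the authors normalised with limma. Here log2 intensity was quantile normalised, control and outlier-flagged spots were dropped and spots of a probe averaged, and all probes were fitted at once with lmFit and eBayes in limma 3.58.1 (R 4.3.3), with Benjamini-Hochberg adjustment. A gene in a list was read by its probe with the highest mean. Probe positions (mm9) came from the scanner files. The members, lists and tests were chosen with earlier results of these data known. Text names every member, the up to 4 called genes of a list with the largest difference, and the 3 genes most correlated with a member whose brightest probe was called by F-test; a few of these genes are not reported here. Alternatives changed the normalisation, background correction, probe filter, probe choice, scanning run, slide and replicates. On simulated data the fit recovered 61% of probes changed by 1 log2 unit and 86% by 2 between HSC subsets and myeloid progenitors, and 21% and 60% between GMP and MEP, among 41015 probes. Only 100 probes were changed by each amount, a far smaller share than was called in the real data. The adjustment was therefore stricter there, and these rates do not give the sensitivity of the reported calls. The number of arrays limits the precision.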

Additional observations from a re-analysis of the deposited data

How the results depend on the processing

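Of the member counts, 2 moved by over 1.5 times. KLF probes lower in the HSC subsets went from 3 to 0 with the scanning run as a block, and KLF probes lower in GMP than in MEP went from 4 to 7 on the 6 numbered arrays without a block, an alternative chosen after seeing the data. Leaving out 1 array at a time gave 9 to 11 probes by F-test, 6 higher and 2 to 4 lower in the HSC subsets, 5 to 6 higher and 3 to 4 lower in GMP, and 74 to 90 calls over pairs. Some signs turned. On leaving out 1 array, Klf2 in GMP minus MEP went from -0.39 to 0.22 without the unnumbered MEP array and 0.11 without GMP 1, and Klf7 between HSC subsets and myeloid progenitors from -0.039 to 0.036 without the LT-HSC array labelled 2-3 and 0.017 without MPP 3, none of them called. With the run as a block 4 more signs turned between HSC subsets and myeloid progenitors, none of them called. Klf2 went from -0.51 to 0.24, Klf5 from -0.73 to 0.62, Klf7 from -0.04 to 0.24 and Klf13 from -0.23 to 0.80. Klf2 between HSC subsets and myeloid progenitors was 1.44 by the mean of its probes and 3.39 by the dimmer one (chosen after seeing the data) against -0.51, and 2.55 by the dimmer one in GMP minus MEP. Likewise Klf3 was -0.47 by the mean and -1.15 by the dimmer probe against 0.22, and Klf7 0.35 and 0.69 against -0.04. Klf9 was 0.47 with the run as a block, 0.19 within the second run and 0.071 by its dimmer probe, against -0.92. The cause was not tested. Scaling to the 75th percentile moved the median of all probes from -0.02 to 0.31 between HSC subsets and myeloid progenitors and from -0.07 to -0.43 in GMP minus MEP.

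With the replicate number as a block on the 6 numbered myeloid arrays, 6 KLF probes were higher and 5 lower in GMP, and 8414 of all probes were called, against 9732 without the block on those arrays and 7152 over all arrays. Each population's mean over its 2 numbered arrays was subtracted, and the deviations of same-numbered arrays were correlated over all probes. These correlations were 0.08 for CMP with GMP, 0.15 for CMP with MEP and 0.06 for GMP with MEP. Arrays of the same number also lay on the same slide, so number and slide cannot be told apart. No paired analysis was possible for HSC subsets against myeloid progenitors because the labels give them fewer than 2 numbers in common. Dimness limits Klf5, with 1 of its 2 probes below background throughout.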
